A study of Mus musculus with 4 samples.

Results

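The regions described here were 1707 binding peaks of Runx3 that ChIP called at the ends of genes and that overlapped no CUT&RUN peak. They were chosen from the ChIP peak list by position and overlap: a peak on chromosomes 1 to 19 or X counted when its summit lay within 1 kb of either end of a RefSeq gene (a gene edge) and when it shared no base with a CUT&RUN peak. Of the 13050 ChIP peaks on these chromosomes, 33.4% were ChIP-only, 42.3% lay at a gene edge, and the 1707 that met both conditions made up 13.1%. Those shares follow from the choice and are given as background. The study had 4 groups of 1 library each, all from CD8 T cells of the spleens of adult wild type mice, taken with magnetic beads against CD8a. For the Runx3 ChIP library, 50000000 cells from 5 mice were frozen, thawed and sonicated, and a rabbit anti-Runx3 serum, diluted 1 in 200, pulled down the chromatin. For the Runx3 CUT&RUN library, 150000 fresh cells from 1 mouse were permeabilized on beads and received the same serum, again diluted 1 in 200. A whole cell extract without antibody was the control for ChIP peak calling, and a CUT&RUN library with normal rabbit serum was not analysed here. The ages of the mice beyond "adult" and their strain are not given in the sources used here.

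Runx3 is a transcription factor that binds DNA through its Runt domain, together with the partner subunit Cbfb, and it is needed for the development and the cytotoxic program of CD8 T cells. Its core site is read as TGTGGT or TGCGGT. ChIP fragments the chromatin by sonication and recovers whatever DNA comes down with the antibody, directly bound or held through other proteins. CUT&RUN releases only the DNA next to the antibody with a tethered nuclease. Promoters of genes that all cells use are commonly open and rich in CG pairs, and they bind ETS, SP/KLF and NRF1 factors in many cell types.

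The ChIP list rested on 9532996 fragments that were left of 48285251 after duplicates were removed, a loss of 80.3%, and the CUT&RUN list on 14068364 of 17896991, a loss of 21.4%. With 1 library per assay there was no replicate check and no test between assays, so no p-value is given. Cell number, freezing, mice, fragment selection and peak calling thresholds differed together with the assay and cannot be told apart. Intervals in parentheses are exact 95% intervals that cover counting error only: they come from the Poisson distribution for a pileup and from the binomial (Clopper-Pearson) for a share, and from the ranks of the values for a median. Of 7 markers of CD8 T cells, Cd3d, Lck and Trac had a ChIP-only edge peak, 3 had a shared one and 6 had a CUT&RUN edge peak. Cd3e, Cd3g, Cd8a and Cd8b1 had no ChIP-only edge peak. Over all protein-coding genes these shares were 7.26%, 17.3% and 27.5%. None of 5 B cell, 5 myeloid and 4 erythroid markers had a ChIP peak at an edge, and 1 myeloid marker had a CUT&RUN peak. Sets of 4 or 5 genes are too small to tell a count of 0 from these shares. Peaks show where DNA was recovered, not which genes were expressed.

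The promoter stretches of 6 genes are shown here to let the sequence under such peaks be seen. They belong to the highest ranked members of the named genes whose summit lay in the 250 bases before a start, outside any gene span, 3 with a RUNX core and 3 without. Each runs 5′ to 3′ on the strand of its gene and ends at the base before the transcription start in RefSeq GRCm38.p6 (mm10). Capitals mark TGTGGT or TGCGGT and the ETS core CCGGAA on either strand, and the rest is in lower case. The stretches are chr17:26886247-26886496 on the minus strand for Gm17382, chr1:37997760-37998009 on the plus strand for Eif5b and chr8:94857200-94857449 on the plus strand for Polr2c. Those without a RUNX core are chr13:113618565-113618814 on the minus strand for Snx18, chr4:124714611-124714860 on the plus strand for Sf3a3 and chr13:114388095-114388344 on the minus strand for Ndufs4.
Gm17382: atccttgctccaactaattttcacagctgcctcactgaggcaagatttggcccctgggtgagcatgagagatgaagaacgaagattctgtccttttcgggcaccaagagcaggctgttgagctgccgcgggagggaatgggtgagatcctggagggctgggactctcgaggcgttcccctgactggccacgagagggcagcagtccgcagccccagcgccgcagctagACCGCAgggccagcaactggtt
Eif5b: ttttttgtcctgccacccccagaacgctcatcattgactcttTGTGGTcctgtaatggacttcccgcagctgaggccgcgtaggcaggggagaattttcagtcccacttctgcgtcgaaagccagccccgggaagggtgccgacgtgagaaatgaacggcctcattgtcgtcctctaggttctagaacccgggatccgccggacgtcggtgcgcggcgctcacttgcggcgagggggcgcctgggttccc
Polr2c: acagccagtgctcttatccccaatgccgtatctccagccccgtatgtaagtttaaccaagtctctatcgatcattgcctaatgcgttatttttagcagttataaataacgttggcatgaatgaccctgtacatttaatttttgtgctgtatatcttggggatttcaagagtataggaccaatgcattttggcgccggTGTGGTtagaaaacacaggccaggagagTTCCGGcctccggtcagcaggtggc
Snx18: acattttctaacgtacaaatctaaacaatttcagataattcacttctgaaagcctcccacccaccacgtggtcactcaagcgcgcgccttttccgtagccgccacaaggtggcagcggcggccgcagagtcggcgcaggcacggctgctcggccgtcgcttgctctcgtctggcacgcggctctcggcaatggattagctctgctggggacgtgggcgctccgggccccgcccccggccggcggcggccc
Sf3a3: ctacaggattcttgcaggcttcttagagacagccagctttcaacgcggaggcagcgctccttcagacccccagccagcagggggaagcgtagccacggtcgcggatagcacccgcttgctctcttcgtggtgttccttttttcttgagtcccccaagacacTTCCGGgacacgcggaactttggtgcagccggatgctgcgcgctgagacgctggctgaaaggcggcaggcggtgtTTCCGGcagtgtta
Ndufs4: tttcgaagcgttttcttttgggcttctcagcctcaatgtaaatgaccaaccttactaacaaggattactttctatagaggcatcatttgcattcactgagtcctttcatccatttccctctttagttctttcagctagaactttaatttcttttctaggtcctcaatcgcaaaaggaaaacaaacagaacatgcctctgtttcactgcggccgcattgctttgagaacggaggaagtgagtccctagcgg

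The summit over Gm17382, a long noncoding RNA gene, lay 11 bp before the start with a pileup of 30 fragments (20.2 to 42.8), and the nearest CUT&RUN peak was 30.388 kb away. Eif5b, which encodes a factor that joins the ribosomal subunits, had its summit 30 bp before the start with a pileup of 20 (12.2 to 30.9), 0.336 kb from a CUT&RUN peak. Polr2c, a subunit of RNA polymerase II, had a pileup of 12 (6.20 to 21.0) at 74 bp before the start and held both a RUNX core and an ETS core. Without a RUNX core, the summit at the sorting nexin gene Snx18 stood 106 bp before its start with a pileup of 17 (9.90 to 27.2). Sf3a3, a subunit of the SF3a splicing complex, had a pileup of 14 (7.65 to 23.5) at 106 bp and held 2 ETS cores. The stretch of Ndufs4, a subunit of respiratory complex I, held neither core, had a GC content of 42% and lay 198.157 kb from the nearest CUT&RUN peak, with a summit pileup of 13 (6.92 to 22.2). Stretches with and without the core overlap in pileup and in distance from the start.

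The ChIP-only edge peaks were low and narrow compared with the ChIP edge peaks that CUT&RUN shared, and they spanned nearly the whole range of the list. Their pileup, the number of fragments over the summit after duplicate removal, had a median of 10 (quartiles 8 and 12, from 7 to 53), against 13 (quartiles 10 and 18, from 7 to 193) for the 3815 shared edge peaks. The median width was 199 bp against 328 bp. By rank in the ChIP list, where 1 is the smallest q, their median was 9176 against 5080, and 19 (1.11%) stood in the top 10% of the list against 452 (11.8%). A q of 1e-05 or less was reached by 35.6% (33.3 to 37.9) of the ChIP-only edge peaks and by 73.3% of the shared ones. The 2649 ChIP-only peaks away from edges were close to the edge class, with a median pileup of 9 and a median width of 174 bp. Overlap with the other assay was part of the choice and follows peak height, so these differences are a description. Of the members, 1 had an expected background of more than 3 times the list median.

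**Figure D1:**
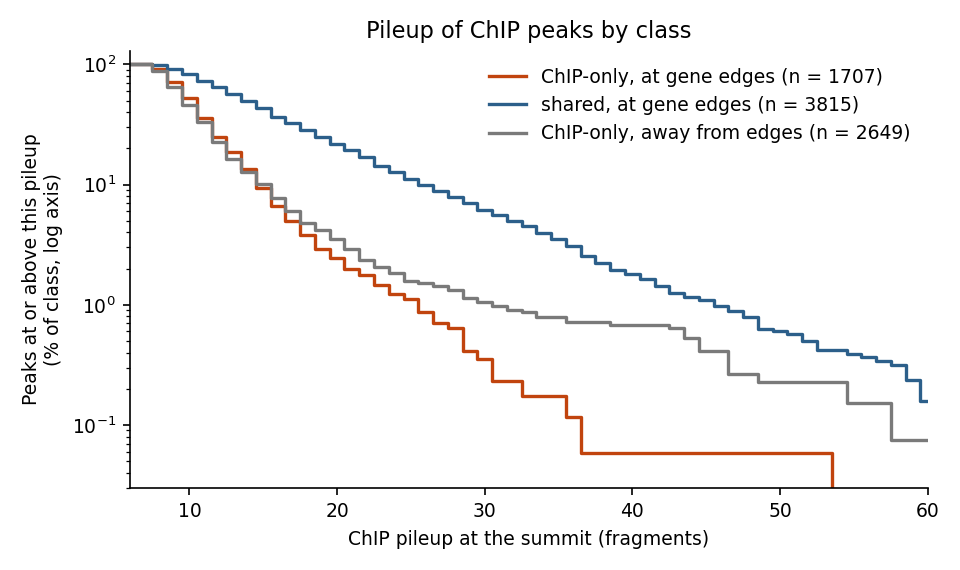
Share of peaks (vertical log axis, % of the class) at or above each ChIP pileup (horizontal axis, fragments) for ChIP-only edge peaks, shared edge peaks and ChIP-only peaks away from edges, each from 1 library. The ChIP-only edge curve lies below the shared one at every pileup above the minimum and ends at 53, while shared edge peaks reach 193, beyond the axis.

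At low pileup, edge peaks were ChIP-only less often than peaks elsewhere, and at high pileup the shares were nearly alike. Among peaks with a pileup of 7 to 9, 56.3% (53.7 to 58.9) of edge peaks and 63.8% (61.7 to 65.8) of peaks elsewhere were ChIP-only. With a pileup of 10 to 12 the shares were 35.8% at edges and 39.6% elsewhere, and with 13 or more they were 12.9% (11.6 to 14.3) and 13.2% (12.0 to 14.4). The ChIP-only share of edge peaks was lowest on chromosomes X (11 of 61 edge peaks), 12 (19.5%) and 16 (19.8%) and highest on chromosome 13 (39.8%, 33.3 to 46.6), beside 30.9% over all.

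Among the 20 best ranked members, 3 had a CUT&RUN peak within 1 kb. They included peaks at Ccdc124, a coiled-coil protein gene (pileup 36, 25.2 to 49.8, rank 357), and near the ends of both Gm46762 and Dusp2 on chromosome 2 (pileup 35, 24.4 to 48.7). Dusp2 encodes a phosphatase that switches off MAP kinases in activated lymphocytes, and a CUT&RUN peak lay 612 bp from its peak. The summit near Emg1, which modifies ribosomal RNA, and Phb2, a prohibitin of mitochondria, had a pileup of 29. Tnks2, a tankyrase, had 28 and lay 298.875 kb from a CUT&RUN peak.

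Tap2, a subunit of the peptide transporter for MHC class I, had a pileup of 27 (17.8 to 39.3) with a CUT&RUN peak 6.085 kb away, and Gbp9, an interferon-inducible GTPase gene, had 25 with one at 4.352 kb. Alkbh3, which removes alkyl groups from nucleic acids, had a summit within 1 bp of an annotated gene end (pileup 26, 17.0 to 38.1) and no CUT&RUN peak within 146.869 kb. Brd7, a bromodomain subunit of a chromatin remodelling complex, had 25 and lay 55.578 kb from one. Rbm39, a splicing factor, had 26 and lay 531 bp from one. Further ones were at Zkscan1 and Gm17382 (30 each), the tRNA gene n-THgtg8, Edrf1 and the pseudogene Gm51258 (28 each), Phrf1 (26), Iqgap3 and Itgb3bp (25 each), and Tram1 and Commd2 (24 each). The 3 with a CUT&RUN peak within 1 kb were those at Gm46762, Edrf1 and Rbm39.

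The edge rule had a cut at 1 kb. Just inside it, members at Ypel5, 2610507B11Rik and Kri1 had summits 998 bp from a gene end and pileups of 9, 10 and 9. Just outside it, ChIP-only peaks at Agap2 (1002 bp), Snord58b and S1pr1 (1005 bp each) had pileups of 18, 11 and 8, and were not counted.

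Where strand was known, nearly all of the peaks stood at the start of their nearest gene rather than at its end. The strand of the nearest gene could be read for 1270 members, and 1140 of these (89.8%, 88.0 to 91.4) were at the start, against 2801 of 3012 shared edge peaks (93.0%, 92.0 to 93.9). Counted the other way, 28.9% (27.5 to 30.4) of the 3941 ChIP peaks nearest a start were ChIP-only, against 38.1% (32.9 to 43.5) of the 341 nearest an end. A start within 1 kb was known for 1185 members (69.4%) and 2871 shared peaks (75.3%), and the summit fell in the promoter window, 250 bases before to 50 after a start, in 576 members (33.7%) and 1932 shared peaks (50.6%). Ends of 2 or more genes lay within 1 kb of 27.2% of members and 29.7% of shared peaks.

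Within 1 kb of starts, the ChIP-only peaks were spread more widely than the shared ones on both sides, and more so into the gene. Their median position was -6 bp (-16 to 4; negative values lie upstream), against -40 bp (-45 to -33) for shared edge peaks. Summits more than 250 bp downstream of the start made up 21.6% (19.3 to 24.1) of ChIP-only peaks and 8.99% (7.97 to 10.1) of shared ones. Summits more than 250 bp upstream made up 16.3% (14.2 to 18.5) and 12.1% (10.9 to 13.3). Summits within 100 bp of it made up 41.0% and 52.6%. In shared peaks the downstream share hardly moved with pileup (9.37%, 8.66% and 9.04% at 7 to 9, 10 to 12 and 13 or more). In ChIP-only peaks it was 26.2%, 18.8% and 15.1%.

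Positions away from the start, on both sides, were more frequent where a CUT&RUN peak lay close by. Of the 529 members with a CUT&RUN peak within 1 kb, 398 had a known start; their median position was 90.5 bp and 39.2% (34.4 to 44.2) lay more than 250 bp downstream and 21.1% (17.2 to 25.4) more than 250 bp upstream. Of the 837 members more than 10 kb from a CUT&RUN peak, 583 had a known start; their median was -20 bp, 11.5% (9.02 to 14.4) lay more than 250 bp downstream, 12.2% (9.64 to 15.1) more than 250 bp upstream and 53.7% lay within 100 bp of the start, close to the shared peaks. Members at 1 to 10 kb had a median of -19.5 bp and a downstream share of 16.2%. The choice of members removed every ChIP peak that touched a CUT&RUN peak, and those of the close group lay at a median of -108 bp. A shift of the remaining close summits away from that place is therefore partly built in by the choice.

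**Figure D2:**
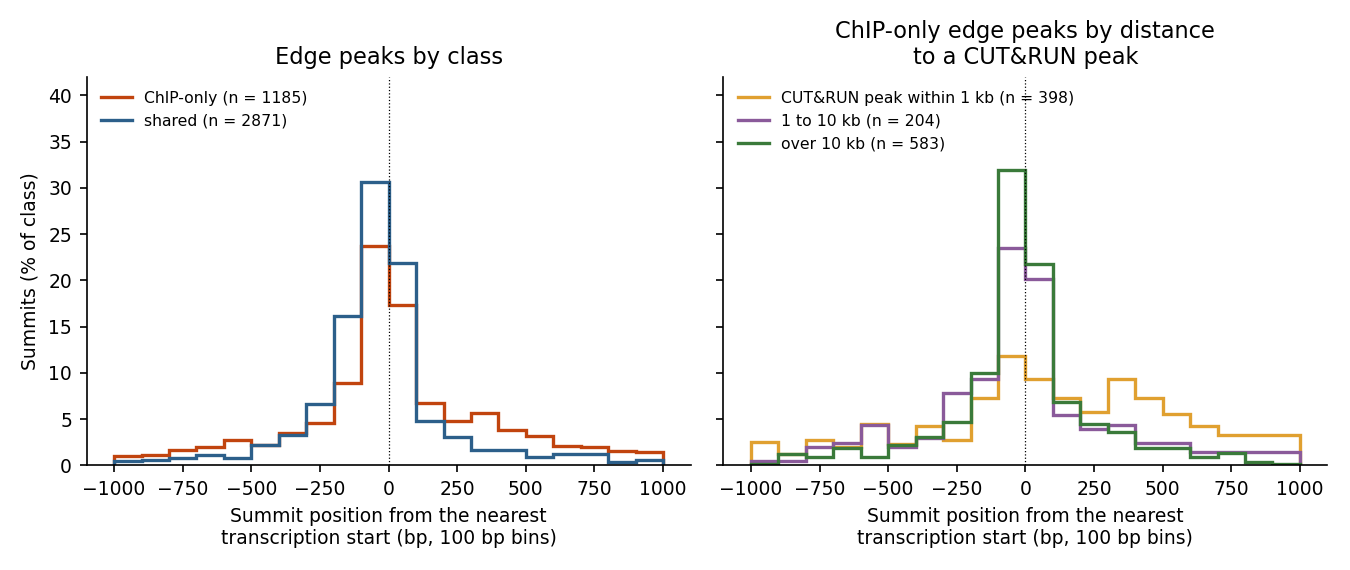
Position of ChIP summits from the nearest transcription start (bp, negative upstream, 100 bp bins) as a share of each class (%), for ChIP-only and shared edge peaks on the left and for ChIP-only edge peaks by distance to the nearest CUT&RUN peak on the right. Members more than 10 kb from a CUT&RUN peak gather at the start as shared peaks do, and those with one within 1 kb extend to both sides (39.2% beyond 250 bp downstream and 21.1% beyond 250 bp upstream).

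In those 398 members the neighbouring CUT&RUN peak lay upstream of the member in 264 (66.3%, 61.5 to 71.0), with the summits a median of 503 bp apart. The neighbours had a median CUT&RUN pileup of 22, beside 25 over the whole CUT&RUN list. Of all 529 members of this kind, 262 (49.5%) had a neighbour that overlapped another ChIP peak. Another ChIP summit within 1 kb was found for 22.6% (20.6 to 24.6) of members, 13.7% of shared edge peaks and 12.5% of ChIP-only peaks away from edges.

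Distances to the nearest CUT&RUN peak covered a wide range. The median was 9147 bp (quartiles 600.5 and 39522 bp), against 13847 bp for ChIP-only peaks away from edges. A CUT&RUN peak lay within 100 bp of 84 members, within 500 bp of 384, within 1 kb of 529 (31.0%, 28.8 to 33.2) and within 10 kb of 870 (51.0%, 48.6 to 53.4). Away from edges, again with all CUT&RUN peaks used, the shares were 14.0% within 1 kb and 44.6% within 10 kb. When only CUT&RUN peaks at or above their median fold were used, for overlap and for distance, the shares of members were 11.8% and 28.0%. ChIP-only peaks away from edges were not recomputed in this way. The closest were at Fam133b, at the proteasome gene Psmd12 and at Zcwpw1 (1 bp each) and at Sypl2 and Cox18 (2 bp each), where the absence of overlap turns on a base or so. The farthest were at 4931408C20Rik (2003.703 kb, pileup 14), Gm46848 beside Ndufaf4 (1448.658 kb, pileup 7), Gm6526, Gtpbp10 (1366.86 kb, pileup 15) and Zfp993 (1211.657 kb). The fold at 4931408C20Rik was 3.44, since its expected background was 2.05 times the list median.

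By kind of gene, transfer RNA genes stood apart from the rest. RNA polymerase III transcribes them from promoters inside the gene, which the factor TFIIIC binds. Of the ChIP edge peaks whose nearest gene was a tRNA gene, 48 of 66 (72.7%, 60.4 to 83.0) were ChIP-only, against 29.8% (28.4 to 31.1) at protein-coding genes, 32.4% at lncRNA genes and 30.9% over all edge peaks. The nearest gene was protein-coding for 77.8% of members and 82.2% of shared peaks, lncRNA for 15.0% and 14.0%, and tRNA for 2.81% (2.08 to 3.71) and 0.472%. For miRNA genes the ChIP-only share was 17 of 35 (48.6%, 31.4 to 66.0), and for immune receptor V segments 3 of 25 (12.0%, 2.55 to 31.2).

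**Figure D3:**
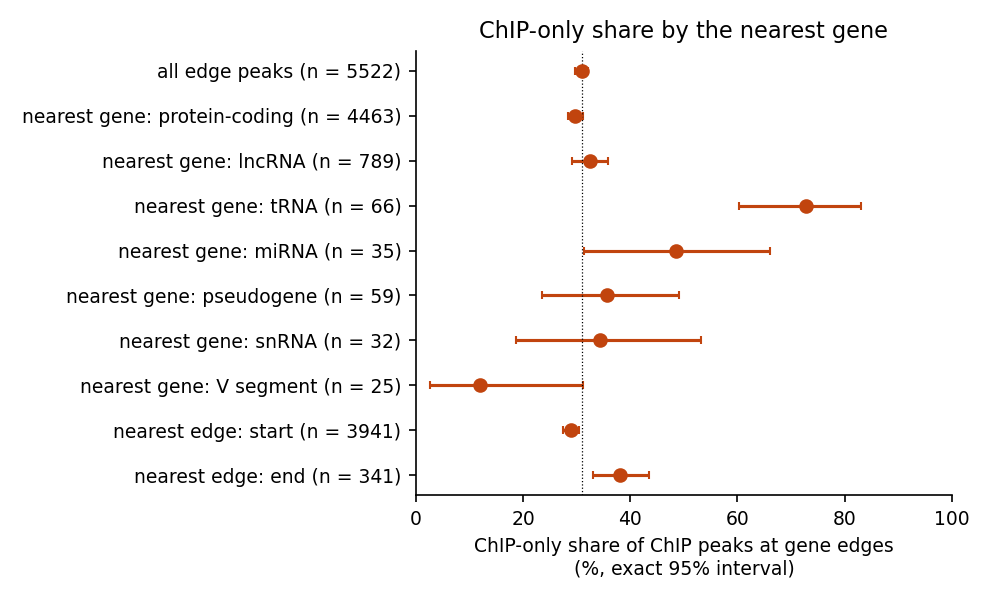
ChIP-only share (%, points with exact 95% intervals for counting error) of the ChIP peaks at gene edges, by the type of the nearest gene and by whether its start or end was nearest; the dotted line is the share over all 5522 edge peaks. The tRNA interval (60.4 to 83.0%) lies above all the others except that of miRNA genes (31.4 to 66.0%), which it overlaps.

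Counted over genes, 80 of 408 tRNA genes (19.6%, 15.9 to 23.8) had a ChIP-only edge peak and 36 (8.82%) had a shared one. With ChIP peaks held to the CUT&RUN threshold, q of 1e-05, the count of ChIP-only tRNA genes was 39. Shared tRNA genes and the other gene types were not recomputed at that threshold, so the comparison below is at a q of 0.05. The background was 1571 of 21631 protein-coding genes (7.26%) with a ChIP-only edge peak and 3749 (17.3%) with a shared one, 339 of 12697 lncRNA genes (2.67%) and 766 (6.03%), and 24 of 1228 miRNA genes (1.95%) and 39 (3.18%). Of these 4 types, tRNA genes had a ChIP-only peak more often than a shared one, and the other types had it less often. No CUT&RUN edge peak was present at 71 of the 80 tRNA genes and at 1005 of the 1571 protein-coding genes. tRNA genes lie in clusters, and 57 peaks accounted for the 80 genes, so the genes are not independent.

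The 57 peaks at tRNA genes had a median pileup of 10 (7 to 28) and a median width of 237 bp, against 15 (7 to 41) and 404 bp for the 29 shared peaks at tRNA genes. A CUT&RUN peak lay within 10 kb of 28.1% (17.0 to 41.5) of them, against 51.8% (49.3 to 54.2) of the other members. The highest stood on chromosome 3, at 96500400 by n-THgtg8, n-TGtcc7 and n-TKctt16 (pileup 28, 18.6 to 40.5) and at 96501510 by n-TEctc13 (pileup 22, 13.8 to 33.3). In these names the letter after T is the amino acid and the lower case triplet the anticodon. The chromosomes with most of these peaks were 11 (13 peaks at 23 of 52 genes), 13 (11 peaks at 16 of 105 genes) and 3 (10 peaks at 12 of 40 genes). Chromosome 6 had none at 53 genes, and none of 56 cysteine tRNA genes had one. Many tRNA genes are near-identical copies of each other. Per the file headers, non-unique reads were removed from the control alignment, by its name, while the ChIP and CUT&RUN alignment names record no such step, so which copy a fragment came from is uncertain. Its part in the result was not tested.

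Genes of protein synthesis carried ChIP-only edge peaks at 12.9% to 23.1% of their members on 4 lists, beside 7.26% of all protein-coding genes. Only the interval of mitochondrial ribosomal proteins lay above that background, and those of the other lists included it. Mitochondrial ribosomal proteins had the highest share, 18 of 78 genes (23.1%, 14.3 to 34.0), led by Mrpl13 (pileup 17), Mrpl44 (13) and Mrps17 (13). Cytosolic ribosomal proteins had 11 of 84 (13.1%, 6.72 to 22.2), led by the stalk protein gene Rplp2 (16, with a CUT&RUN peak 156 bp away), Rpl38 (13) and Rps28 (13). Translation factors had 9 of 70 (12.9%), with Eif5b (20), Eef1b2 (16) and Eef1akmt3 (14), the last a methyltransferase of an elongation factor. The tRNA synthetases had 5 of 37 (13.5%, 4.54 to 28.8), led by Farsb (13), Dars (11) and Sars2 (11). The Sars2 peak was also counted for the mitochondrial ribosomal protein gene Mrps12. Shared edge peaks were more frequent in all 4 lists, at 31, 30, 29 and 12 genes, beside a background of 17.3%.

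Mitochondrial genes outside translation differed between lists. Oxidative phosphorylation had 16 of 96 genes (16.7%, 9.84 to 25.6) with a ChIP-only edge peak and 28 with a shared one. Its best ranked members were at Ndufs1 of complex I (pileup 16, the peak also counted for Eef1b2), at the assembly factor Ndufaf1 (15) and at Ndufs4 (13). Mitochondrial import and carrier genes had 5 of 72 (6.94%), at the background, with Slc25a11 (12), Slc25a45 (12) and Tomm7 (9).

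Among genes of transcription and RNA processing, 16 of 105 genes of RNA polymerases and general factors (15.2%, 8.97 to 23.6) had a ChIP-only edge peak. Taf6 of TFIID had a pileup of 14, Gtf3c6, a subunit of the tRNA promoter factor TFIIIC, had 12, and Polr2c had 12. Splicing factors and hnRNPs had 13 of 69 (18.8%, 10.4 to 30.1), with Sf3a3 (14), Sf3b3 (13) and Srsf2 (12). RNA helicases and the exosome had 11 of 62 (17.7%), with Dhx9 (19, 11.4 to 29.7), Ddx59 (13) and Exosc8 (12). Nuclear pore genes had 2 of 21 (9.52%, 1.17 to 30.4), Nup133 (13) and Nup50 (10), an interval that included the 7.26% of all protein-coding genes. Shared edge peaks stood at 45, 41, 27 and 9 genes of these lists.

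Protein turnover and traffic were represented as well, beside 7.26% of all protein-coding genes. Of 39 proteasome subunit genes, 9 (23.1%, 11.1 to 39.3) had a ChIP-only edge peak and 10 a shared one. Of the 19 ChIP edge peaks of the list, 47.4% (24.4 to 71.1) were ChIP-only, an interval that included the 30.9% over all edge peaks. The leading ones were Psmc2 (13), an ATPase of the regulatory particle, Psmb4 (11) and Psmd12 (10). Ubiquitin conjugation and removal had 15 of 160 (9.38%, 5.34 to 15.0), near the background, led by Ube2d2a (14), Fbxo36 (12) and Ube2s (10). Rab, Vps and sorting nexin genes had 22 of 134 (16.4%, 10.6 to 23.8), led by Vps13b (18), Snx18 (17) and Vps72 (16). Vps72 is known as a subunit of a chromatin remodelling complex and not of vesicle traffic. Heat shock proteins and chaperonins had 7 of 70, with Cct3 (15), Dnajc2 (13) and Dnajc21 (12).

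Zinc finger protein genes made up the largest group, 50 of 397 (12.6%, 9.49 to 16.3) against 74 with a shared edge peak. Their best ranked members were Zfp609 (17), Zfp626 (15) and Zfp871 (14), all more than 10 kb from a CUT&RUN peak, as were 37 of the list's 49 ChIP-only peaks. Zinc finger and BTB genes had 5 of 41, with Zbtb8os (15), which is only a neighbour of a BTB gene by name, Zbtb2 (10) and Zbtb49 (10). Chromatin modifiers and remodellers had 19 of 89 (21.3%, 13.4 to 31.3), led by Brd7 (25), the histone demethylase gene Kdm3b (23) and Brd8 (18). DNA repair had 4 of 42, led by Ercc1 (23), Xrcc5 (11) and Lig4 (10). Cell cycle genes had 9 of 39 (23.1%), with Mcm7 of the replicative helicase (12), Aurka (10) and Cdkn2d (10). Dual-specificity phosphatases had 3 of 24, at Dusp2, Dusp10 and Dusp1, and all 4 peaks of the list lay within 1 kb of a CUT&RUN peak. Apoptosis genes had 4 of 25, with Bad (11), Cflar (10) and Ripk1 (10). The intervals of the BTB, DNA repair, dual-specificity phosphatase and apoptosis lists included the 7.26% of all protein-coding genes.

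T cell genes held ChIP-only edge peaks too, beside 7.26% of all protein-coding genes. T cell receptor signalling and identity had 7 of 32 (21.9%, 9.28 to 40.0), with Thy1, a surface glycoprotein (14), the kinase Fyn (12) and the CD3 chain gene Cd3d (12). T cell transcription factors had 6 of 42 (14.3%, 5.43 to 28.5), with Ikzf3 (12), the RUNX partner Cbfb (10) and Nr4a3 (9). Cytokine receptors, JAKs and SOCS had 4 of 30 (13.3%, 3.76 to 30.7), with the signalling inhibitors Socs1 (13) and Socs3 (9) and the receptor chain Il2rb (9). The intervals of the transcription factor and cytokine receptor lists included the background. CD8 effector and migration genes had 7 of 40 (17.5%, 7.34 to 32.8), with Ctsw, a cathepsin of killer cells (11), the chemokine receptor Cxcr4 (10) and the integrin chain Itga4 (10). Shared edge peaks stood at 16, 13, 17 and 10 genes of these lists, beside 17.3% of all protein-coding genes. Of the 18 inhibitory and costimulatory receptor genes none had a ChIP-only edge peak, with an exact upper bound of 18.5%, and 4 had a shared one.

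The ChIP-only edge peaks of these 4 T cell lists mostly lay in the neighbourhood of CUT&RUN peaks. Of their 24 peaks, 5 (20.8%, 7.13 to 42.2) were more than 10 kb from one, with a median distance of 2282 bp. Of the 254 peaks of the other lists that had any, 136 (53.5%, 47.2 to 59.8) were more than 10 kb away, with a median of 11945.5 bp. The shares within 1 kb were 33.3% (15.6 to 55.3) and 30.7% (25.1 to 36.8). This grouping of lists was made after the values were seen. B cell, myeloid, erythroid, hepatocyte and neuronal gene lists, of 13 to 15 genes each, had no ChIP-only edge peak. The exact upper bounds were 21.8% to 24.7%, so each interval included the 7.26% of all protein-coding genes. A shared edge peak stood at 1 gene each of the B cell, myeloid and erythroid lists.

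**Figure D4:**
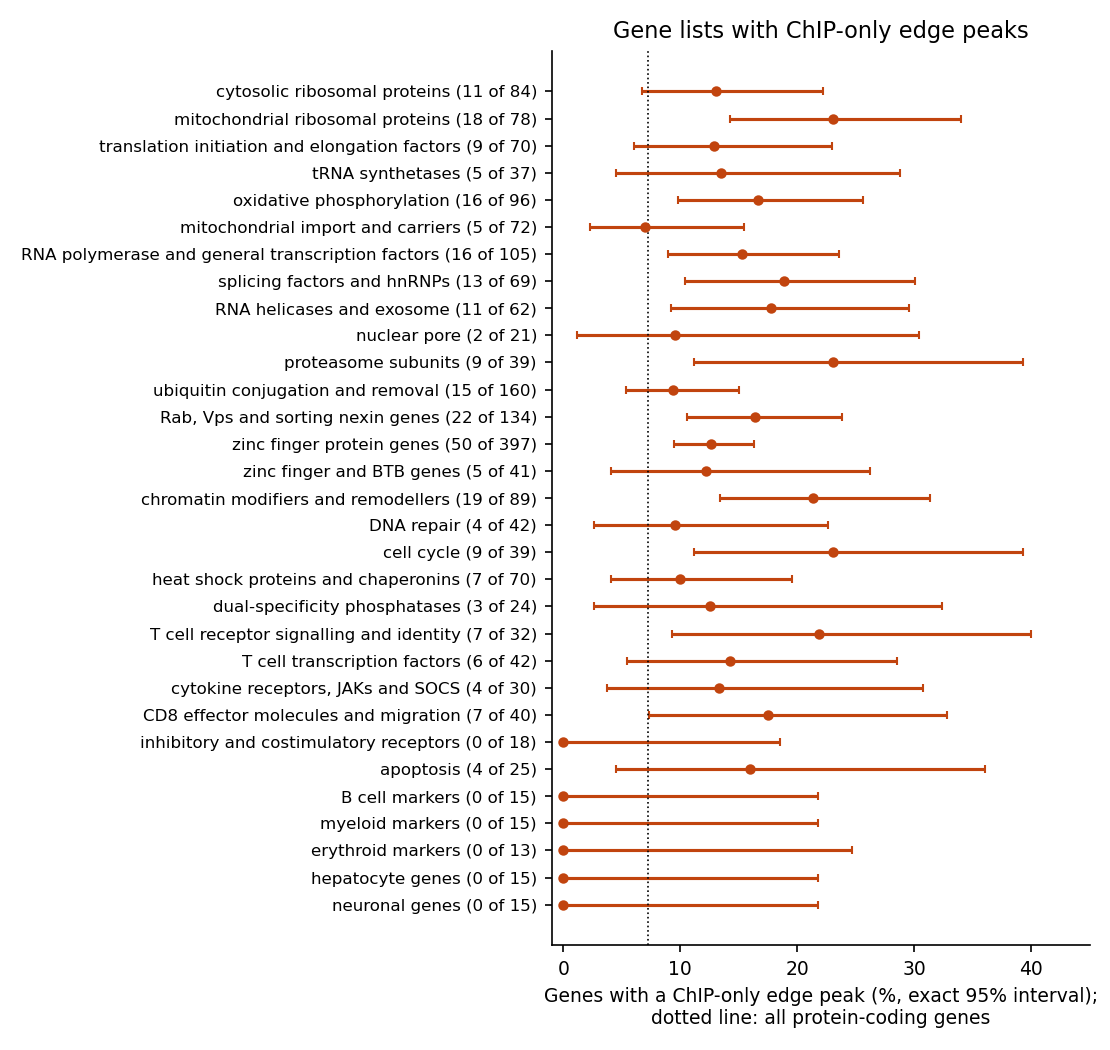
Share of genes of each list with a ChIP-only edge peak (%, points with exact 95% intervals for counting error; counts in the labels), beside the 7.26% of all protein-coding genes (dotted line). Proteasome, cell cycle and mitochondrial ribosomal genes have the highest shares (23.1% each). Lists of other cell types and of inhibitory and costimulatory receptors stand at 0, with intervals that include the dotted line.

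Over the 31 lists, 277 of 1988 distinct genes had a ChIP-only edge peak and 620 a shared one. In every list with ChIP edge peaks, the interval of their ChIP-only share included the 30.9% over all edge peaks. Shares of genes above 7.26% were therefore not shown to be particular to ChIP-only peaks. The background of all protein-coding genes includes genes that CD8 T cells do not use, and expression was not measured here, so the part of gene activity in these shares was not tested. A peak within 1 kb of the ends of several genes was counted for each.

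Some genes had several members. In all, 2095 genes had at least 1 ChIP-only edge peak, 126 had 2 or more (81 protein-coding) and 6 had 3. Those with 3 were Taf5l, which encodes a subunit of SAGA-type coactivator complexes (pileups of 11, 9 and 9), Gm51556, Gm52799, Lockd and the tRNA genes n-TGtcc7 and n-TLtaa4. Of the 1571 protein-coding genes with a ChIP-only edge peak, 298 also had a shared ChIP peak at an edge.

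The promoter windows of ChIP-only peaks held the RUNX core less often than those of shared peaks. Of the 576 windows that held a ChIP-only summit, 157 (27.3%, 23.7 to 31.1) contained TGTGGT or TGCGGT on either strand, against 798 of 1932 (41.3%, 39.1 to 43.5) for shared summits and 22.4% of all 32851 RefSeq promoter windows of the same length. TGTGGT alone was in 15.6% of ChIP-only, 21.7% of shared and 16.8% of all windows. TGCGGT was in 13.5%, 21.6% and 6.45%. The longer TGTGGTT, which contains TGTGGT, was in 4.69% (3.11 to 6.75), 8.23% and 5.27%. Gm17382, Eif5b and Polr2c above are among the windows with a core. A match is a string of letters, not a bound site, and the window is fixed by the gene start and not by the summit.

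The share with a RUNX core went up with pileup in both classes, and most of the gap between them was at the highest pileups. At a pileup of 7 to 9 it was 20.3% (15.4 to 26.0) of ChIP-only and 24.7% (19.9 to 30) of shared windows. At 10 to 12 it was 28.4% and 30.7%, and at 13 or more it was 37.9% (29.6 to 46.7) and 51.1% (48.1 to 54.1). In ChIP-only windows within 1 kb of a CUT&RUN peak it was 22.2% (14.8 to 31.2, n = 108), and in those farther away 28.4% (24.4 to 32.7, n = 468).

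Of the other promoter motifs, CCAAT, the NRF1 motif and GGGCGG were less frequent in ChIP-only than in shared windows. The ETS core CCGGAA, carried by Sf3a3 and Polr2c above, was in 41.7% (37.6 to 45.8) of ChIP-only, 36.0% (33.8 to 38.2) of shared and 14.9% of all windows, with overlapping intervals. CCAAT was in 27.1% (23.5 to 30.9), 43.4% (41.2 to 45.7) and 37.4%. The difference in CCAAT was present at each pileup level, with 30.1%, 26.9% and 22.0% of ChIP-only and 51.0%, 43.6% and 41.3% of shared windows from low to high pileup. The NRF1 consensus motif was in 8.68% (6.51 to 11.3) of ChIP-only, 14.4% (12.9 to 16.1) of shared and 4.60% of all windows. GGGCGG, read by SP/KLF factors, was in 64.9% (60.9 to 68.8) of ChIP-only, 75.2% (73.2 to 77.1) of shared and 35.7% of all windows. TATAAA was in 8.16%, 5.02% and 13.6%. Neither a RUNX core nor CCGGAA was found in 42.4% (38.3 to 46.5) of ChIP-only and 37.4% of shared windows, as against 66.0% of all windows. Both were missing in Ndufs4 and Snx18.

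**Figure D5:**
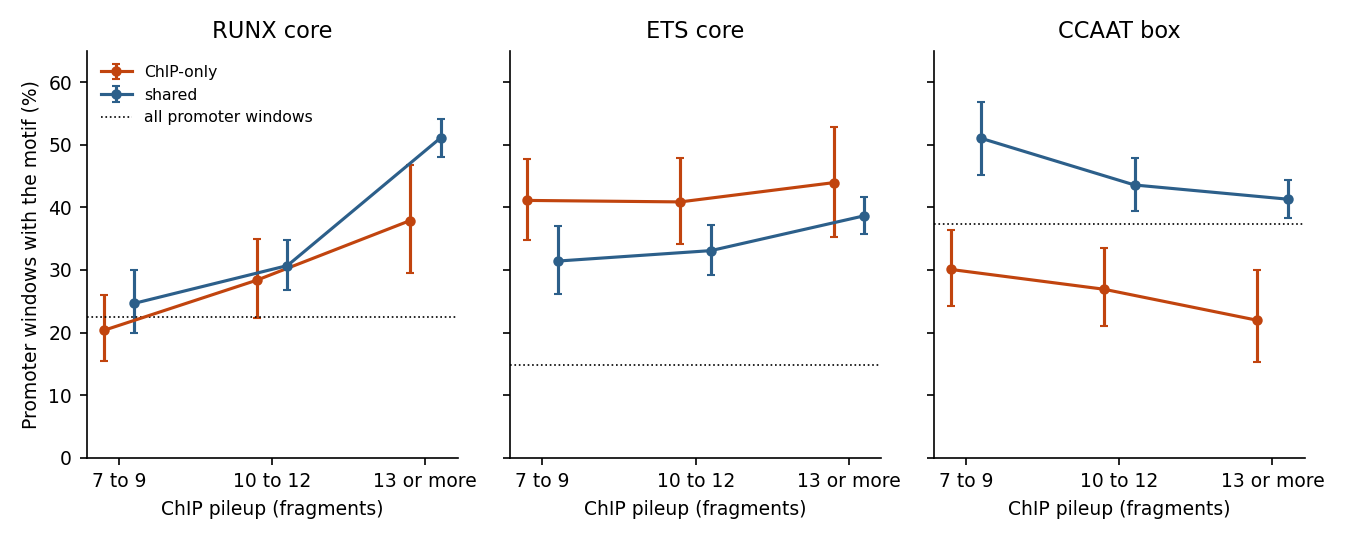
Share of promoter windows with the RUNX core, the ETS core and the CCAAT box (%, exact 95% intervals for counting error) by ChIP pileup, for windows holding a ChIP-only or a shared summit; dotted lines give the share of all promoter windows. The RUNX core goes up with pileup in both classes (to 37.9% and 51.1%), and CCAAT is less frequent in ChIP-only windows at each level.

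GC content was slightly lower in ChIP-only than in shared windows, and both stood above the other windows. The median GC content was 61.3% (60.3 to 62.3) in ChIP-only windows and 63.2% (62.7 to 63.7) in shared windows, against 52.7% in all windows and 56.7% in the 21045 windows of protein-coding genes. The median number of CG pairs per window was 23 in ChIP-only and 24 in shared windows, against 7 in all. Motifs rich in C and G are more frequent in such windows, and the part of base composition in the motif shares was not tested.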

How the data were processed

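Splenic CD8 T cells were profiled with 1 library per group, and peak lists of the Runx3 ChIP and the Runx3 CUT&RUN library were used. Per the submitters' processing notes, the authors used Bowtie, MACS2 and mm10. Settings of the aligner are not given in the sources used here. MACS2 2.1.1.20160309, per the file headers, ran on paired-end fragments with at most 1 fragment per position. ChIP peaks passed a q of 0.05 with the whole cell extract as control. CUT&RUN peaks passed a q of 1e-05, with no control, from an alignment named for nucleosome-free fragments. Mean fragment sizes were 115 and 63 bp. The deposited values per peak are a pileup (a coverage signal), the −log10 of p and of q, and the fold over background (a ratio), all the authors' own. For 97.2% of ChIP peaks the expected background, (pileup + 1) divided by the fold, lay within 1% of the list median, so folds follow pileups.

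Peaks overlapping by 1 bp or more counted as shared (checked with bedtools 2.31.1). Gene ends were those of 49554 RefSeq genes on the chromosomes used (GRCm38.p6, which is mm10). Strand and sequence came from RefSeq promoter windows, 250 bases before to 50 after 32851 starts, since no genome sequence was used here. Such a window was held for 27025 genes. None lay on chromosome 18, so its 43 members had no strand, start position, motif or GC value. The planned motif search around summits was therefore made in the window holding the summit. The counting scripts were tested on simulated peaks (Python 3.11.15, pandas 2.3.3, scipy 1.17.1). Named genes were the 20 best ranked members (1 of them is not reported here), the 3 best ranked per list, those next to the 1 kb limit, the 5 closest to and farthest from a CUT&RUN peak, and genes with several members. Stretches were printed for up to 8 of these. 1 listed gene, Tp53bp1, had no match. The members and the gene lists were chosen with earlier results of these data known. Peaks outside chromosomes 1 to 19 and X were left out.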

Additional observations from a re-analysis of the deposited data

Results flagged for a closer look

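Peaks outside the chromosomes used above were also listed. All 29 ChIP peaks on chromosome Y were ChIP-only, and 60 of the 87 ChIP peaks on contigs not placed in a chromosome were ChIP-only. Their median pileup was 18 and their highest 110. No CUT&RUN peak overlapped them, and no control list was used here, so they are given as counts only. They were singled out because they lie in data outside the comparisons of the report.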

How the results depend on the processing

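Values were recomputed under 9 alternatives, in 103 cases: 66 stayed within the counting interval of the reported value or, for counts, within 1.5 times, and 37 moved outside. Values of members alone were recomputed, not those of the classes they are compared with. The value of every moved case follows.

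When only ChIP peaks with q of 1e-05 or less were used, members numbered 607, ChIP-only peaks at edges 42.4%, the median pileup 13, the median width 267 bp, members nearest a protein-coding gene 81.4%, those with a CUT&RUN peak within 10 kb 47.9% and within 1 kb 26.0%, windows with a RUNX core 34.6%, listed genes 103, tRNA genes 39 and summits over 250 bp downstream 14.7%. When only CUT&RUN peaks at or above their median fold were used, members numbered 3102, the edge share was 42.5%, the width 232 bp and the protein-coding share 80.4%. The 10 kb share was then 28.0%, the 1 kb share 11.8%, listed genes 495 and the downstream share 16.4%. In this setting the weaker CUT&RUN peaks neither removed members nor counted as neighbours in the distances. With no CUT&RUN peak allowed within 500 bp, the edge share was 35.3%, peaks at starts 88.0%, the 10 kb share 36.7%, the 1 kb share 11.0% and the downstream share 17.2%. With shared meaning at least 0.5 of the shorter peak, the 10 kb share was 55.6% and the 1 kb share 37.5%. With edges of 0.5 kb the edge share was 29.7%, starts 92.5%, the 10 kb share 45.3%, the 1 kb share 25.2% and the downstream share 13.9%. With edges of 2 kb the edge share was 49.0%, starts 87.0% and the protein-coding share 75.4%. With ends of protein-coding genes only, the edge share was 32.6% and starts 92.3%, and no tRNA count or protein-coding share exists. TGTGGTT alone was in 4.69% of windows. Except where the construction sets the change, the cause was not tested.

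The alternatives for tRNA genes, downstream summits and the 1 kb share were added after seeing the data. The narrower summit window was not run. No paired analysis was possible because each group has 1 library. Low pileups limit precision: at the median pileup of 10 the counting interval spans 4.80 to 18.4.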
